A study of Mus musculus with 2 samples.

Results

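Growth plate chondrocytes were chosen by measured UMI counts in cells of mouse femur. A cell was kept when at least 200 genes were detected in it, *Col2a1* held 1% or more of its unique molecular identifiers (UMIs, each standing for 1 captured mRNA molecule), and it had at least 5 UMIs of *Matn3* and 2 of *Epyc*. Cells with *Col10a1* at 0.1% or more, 3 or more UMIs of *Ihh*, *Prg4* at 0.5% or more, or haemoglobin at 10% or more were left out. This gave 216 cells of the 8553 with 200 or more genes, and of 10638 barcodes in all.

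All mice were male C57BL/6J, aged 7 weeks. The untreated library pooled cells of 6 mice, and the calcitriol library pooled cells of 6 mice that had received 2.5 μg/kg calcitriol (1,25-dihydroxyvitamin D3) into a vein daily, with 3 injections in all and collection 24 hours after the last. The labels name no transgene or deletion in either group. Bone freed of its ends (epiphyses) and marrow had been treated with collagenase and EGTA to release cells. CD45+ cells had then been depleted before 3′ single-cell RNA sequencing. Animals were pooled into 1 library per group, so no spread between mice could be measured and no p-value is given. Treatment, mice, digestion and library cannot be told apart in any difference below.

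The growth plate is the cartilage that lengthens long bones. Its chondrocytes divide in columns, lay down a matrix of type II, IX and XI collagen with aggrecan, and then enlarge and switch to *Col10a1* before bone replaces them. Matrilin-3 (*Matn3*) links collagen fibrils to proteoglycans, and epiphycan (*Epyc*) is a small leucine-rich proteoglycan of growing cartilage. The plate has no vessels, and its cells live on glycolysis at low oxygen. Calcitriol acts through the vitamin D receptor, encoded by *Vdr*.

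The 89 untreated members held 3082451 UMIs, with a median of 32361 per cell (range 12455 to 78715) and 4721 genes. The 127 calcitriol members held 4222899 UMIs, with a median of 30064 (range 10395 to 93115) and 4367 genes. Depth was thus close, and the ranges of the cells overlapped almost entirely. They made up 89 of the 4633 untreated barcodes with 200 or more genes (1.92%, 95% exact binomial interval 1.55 to 2.36) and 127 of the 3920 calcitriol ones (3.24%, 2.71 to 3.84). These shares depended on red cells: haemoglobin took 41.2% of all UMIs in the untreated library and 10.6% in the calcitriol library. Among the *Col2a1* cells alone, members were 89 of 275 (32.4%, 26.9 to 38.2) untreated and 127 of 430 (29.5%, 25.3 to 34.1) with calcitriol, and these intervals overlapped. Intervals here and below cover counting error only. The libraries shared 8 barcodes, and none belonged to a member.

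The rule fixed the levels of the genes it used, so they are given as a description. *Matn3* had a lowest cell value of 368 CPM (the gene's UMIs scaled to a common total), a median of 2703 and a highest of 5942 in untreated cells, and 206, 1679 and 6117 in calcitriol cells. *Epyc* had a median of 445 CPM untreated and 313 with calcitriol. *Col2a1*, the main collagen of cartilage, ran from 10999.6 to 79028 CPM around a median of 48519 untreated, and from 10065 to 126259 around 33617 with calcitriol. The lower of the 3 medians stood with calcitriol each time, while the ranges of the cells overlapped. No member lay at the limit of 5 UMIs of *Matn3*: the lowest had 8 untreated and 6 with calcitriol, and the nearest cells outside had 2 and 3. The limit on *Epyc* was closer, with 3 untreated and 13 calcitriol members at exactly 2 UMIs, and it alone kept out 40 and 37 cells.

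The label was checked against markers. All 14 markers of the chondrocyte list, which holds *Col2a1*, had UMIs in both libraries. The next 3 genes were not used by the rule but were listed as markers of this part with earlier results of these data known. Their presence thus describes the members and does not check the label. *Col9a1*, a chain of collagen IX, was found in 100% of members, and *Fxyd2*, a regulator of the sodium pump, in 97.8% and 97.6%. *Serpina1a*, a serine protease inhibitor known mainly from liver, was found in 69.7% of untreated and 71.7% of calcitriol members, against 1.02% and 0.862% of endothelial cells (median depth 9101 and 9950 UMIs). It was also found in 27.3% and 45.5% of the *Col10a1* or *Ihh* cells, and in 8.51% and 17.4% of the *Col2a1* cells that met no rule. Leukocyte markers summed to 4.22 and 4.26 CPM, with *Ptprc* at 0. Endothelial markers summed to 12.3 and 9.71 CPM, of which *Eng* was the most abundant, with *Cdh5* and *Emcn* at 0 untreated and *Kdr* at 0 with calcitriol. The osteoblast list of 8 genes stood at 3191 CPM untreated, led by *Col1a2*, and 2884 CPM with calcitriol, led by *Ibsp*, where *Ifitm5* was at 0. Its members went both ways. *Ibsp* (113 and 858 CPM) and *Alpl* (388 and 455) were higher with calcitriol. *Col1a2* (1157 and 665), *Col1a1* (967 and 683), *Bglap* (311 and 130), *Bglap2* (214 and 51.4) and *Sp7* (41.5 and 40.0) were lower. Summed lists of neighbouring cartilage cells also differed between the libraries. The 6 superficial articular markers summed to 335 CPM untreated and 1452 CPM with calcitriol, led by *Cytl1*. This sum includes 12.3 and 126 CPM of *Prg4*, which the rule capped. Within it *Cytl1* (268 and 1223 CPM) and *Cilp* were also higher with calcitriol. *Cilp2* (36.7 and 27.2 CPM), *Erg* (6.81 and 4.26) and *Sema3a* (0.324 and 0.237, from 1 UMI in each library) were lower. The prehypertrophic and hypertrophic list of 11 genes stood at 1921 CPM, led by *Pth1r*, and 3304 CPM, led by *Spp1*. It includes *Col10a1* and *Ihh*, which the rule also capped. Within it *Spp1* went from 429 to 1115 CPM and *Ibsp* from 113 to 858 CPM. *Pth1r* (466 and 322 CPM), *Panx3* (152 and 99.9), *Sp7* (41.5 and 40.0) and *Ihh* (2.60 and 0.947) were lower with calcitriol. The rest were higher by less than 2-fold. The resting zone list of 7 stood at 384 and 614 CPM, led by *Apoe*. Within it *Apoe* (304 and 408 CPM), *Clu* (42.2 and 159), *Gas1* (4.87 and 16.1) and *Pthlh* (2.60 and 3.79) were higher with calcitriol. *Foxa2* (21.1 and 20.4), *Sfrp5* (5.84 and 3.08) and *Barx1* (3.57 and 3.08) were lower. Each gene of these neighbouring lists had a UMI in both libraries, and the part of such cells in the differences below was not tested.

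Single members of both libraries carried genes of other lineages. Among untreated members, the cell with most UMIs of each gene held 1900 of the 2982 UMIs of *Col1a1*, 364 of the 574 of *Postn* and 209 of the 283 of *Aspn*. Fibroblast markers summed to 472 CPM untreated and 273 CPM with calcitriol, led by *Col3a1* in both. *Col3a1* went from 448 to 188 CPM and *Pi16* from 0.649 to 0.237 CPM. The other markers of the list were higher with calcitriol: *Ly6a* (18.5 and 55.6 CPM), *Clec3b* (2.60 and 17.8), *Pdgfra* (2.27 and 5.92) and *Dpt* (0.324 and 5.21). Osteocyte markers summed to 3.24 CPM untreated and 86.0 CPM with calcitriol. The calcitriol cell with most UMIs of each gene held 164 of the 165 of *Dmp1* and 121 of the 122 of *Mepe*. Another single cell held 62.4% of all calcitriol UMIs of *Spp1* (osteopontin) and 48.0% of those of *Ibsp* (bone sialoprotein). Smooth muscle and pericyte markers summed to 71.7 and 231 CPM, led by *Tagln*, with *Myh11* at 0 untreated. Doublet scoring marked 8 untreated and 9 calcitriol members, which were kept in the values and left out in an alternative.

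Free RNA also differed between the libraries. *Prg4*, the lubricin gene of the joint surface, had UMIs in 23.6% of untreated and 55.1% of calcitriol members, but also in 8.01% and 34.4% of red cells, which should lack it (median depth 10480 and 10324 UMIs), and in 21.3% and 46.6% of endothelial cells. In CPM, *Prg4* was at 12.3 in untreated members and 8.98 in untreated red cells, and at 126 in calcitriol members and 136 in calcitriol red cells. Its level in members was also capped by the rule, and no difference was read from it. Red cells averaged 0.568 and 2.08 UMIs of *Mgp* per cell, against 318 and 1327 in members, and 0.361 and 2.51 UMIs of *Cst3*, against 102 and 347. *Fth1*, which red cells also express, had 2910 and 1736 CPM in them. Haemoglobin in members was lower with calcitriol, at a median of 0.0823% of a cell's UMIs untreated and 0.0174% with calcitriol.

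Of 32285 genes, 4558 had a mean of 20 CPM or more over the libraries and were compared as the log2 ratio of summed CPM, calcitriol over untreated. Haemoglobin, mitochondrial and rule genes were not compared. The median log2 ratio was -0.17 (quartiles -0.44 and 0.10), and 66.2% of the genes compared were below 0. At 2-fold or more, 71 genes were higher with calcitriol (1.56% of those compared) and 162 were lower (3.55%). Higher genes were thus 30.5% of those past 2-fold, and 50.8% after centring on the median, with 98 higher and 95 lower. The counting interval lay wholly past 2-fold for 41 higher and 62 lower genes. The 85 ribosomal protein genes had a median of 0.13, and none of them was past 2-fold.

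**Figure D1:**
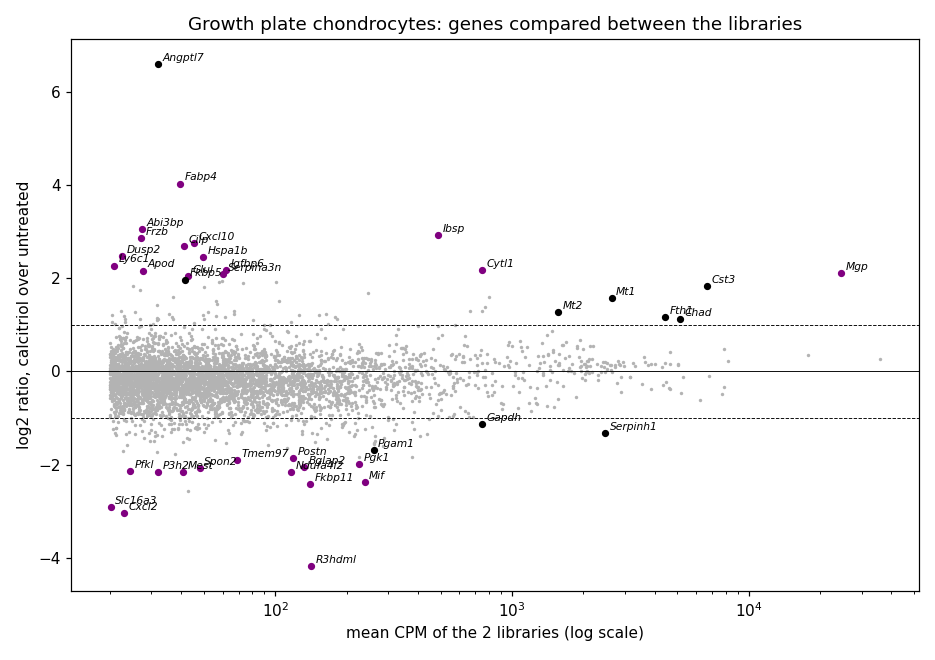
Log2 ratio of summed CPM in growth plate chondrocytes, calcitriol over untreated (vertical), against the mean CPM of the 2 libraries (horizontal, log scale) for 4558 genes, 1 point each. Purple points are genes of the largest and smallest ratios by the naming rule, black points other genes of the text, and dashed lines 2-fold. Most genes sit just under 0, with a median of -0.17, and *Mgp* stands out at high level with a ratio of 2.12.

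*Mgp* encodes matrix Gla protein, an inhibitor of cartilage mineralization (chr6:136872435-136875823, minus strand, GRCm38). Its lowest, median and highest cell values were 599, 4626 and 63714 CPM untreated and 673, 31567 and 153930 CPM with calcitriol. The upper quartile of untreated cells (11820) lay below the lower quartile of calcitriol cells (13642), although the full ranges overlapped. In summed CPM it went from 9185 (9078 to 9292) to 39897 (39706 to 40087), a log2 ratio of 2.12. *Cst3*, which encodes the protease inhibitor cystatin C, had cell values of 322, 2160 and 36882 CPM untreated and 673, 8778 and 74457 CPM with calcitriol, and a log2 ratio of 1.83. Here too the middle of the cells was apart while the extremes overlapped.

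*Chad* encodes chondroadherin, a leucine-rich protein of cartilage that binds integrin. Its cell values were 141, 2786 and 17195 CPM untreated and 1168, 6628 and 21983 CPM with calcitriol, with a log2 ratio of 1.13. *Fth1*, the heavy chain of ferritin that stores iron, had a log2 ratio of 1.16, and 0.99 with at least 10 UMIs of *Matn3* and 4 of *Epyc*. *Cytl1*, a secreted protein of cartilage and one of the superficial articular markers, was found in 48.3% of untreated and 80.3% of calcitriol members, and after thinning each cell to 10000 UMIs in 32.6% (23.0 to 43.3) and 60.6% (51.6 to 69.2). Red cells had *Cytl1* in 3.43% and 17.5%, at 3.39 and 104 CPM. Its summed level was 268 CPM untreated and 1223 CPM with calcitriol, a log2 ratio of 2.19, and 22.4% of its untreated UMIs lay in 1 cell. In the *Prg4* cells its level was 12577 CPM untreated and 24706 CPM with calcitriol.

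**Figure D2:**
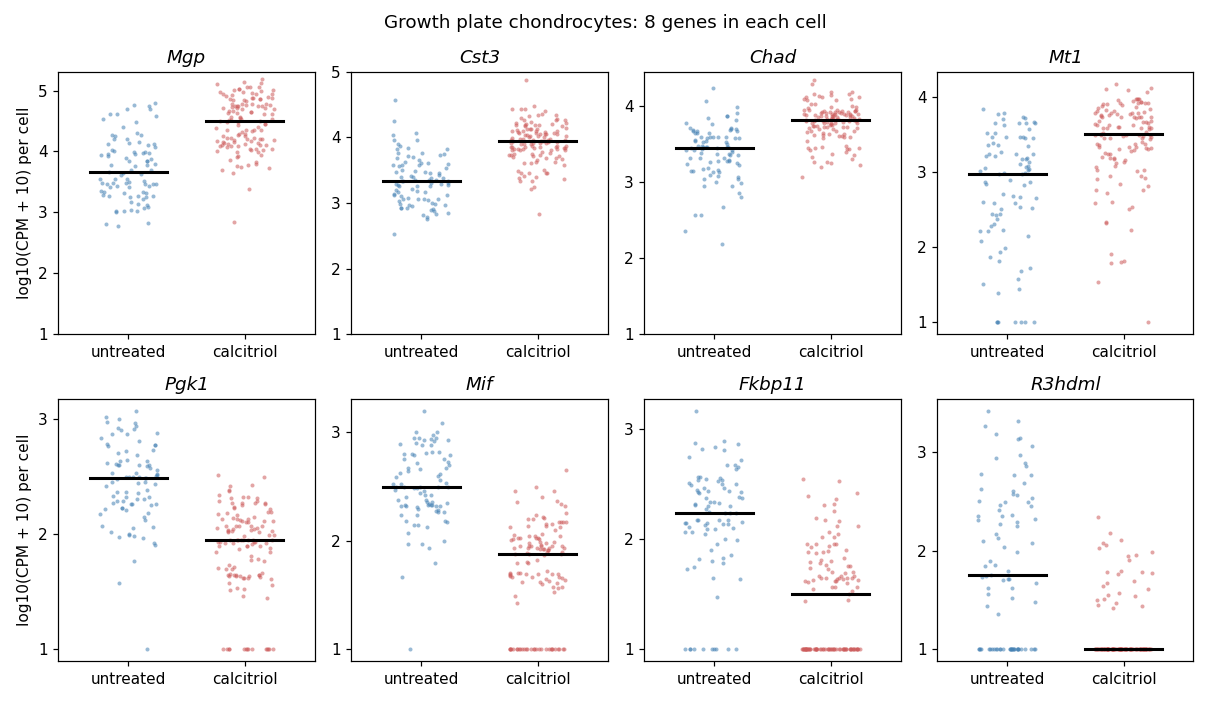
Level of 8 genes in every growth plate chondrocyte, as log10 of CPM plus 10 (vertical, log scale), in 89 untreated (blue) and 127 calcitriol (red) cells, 1 point per cell with a black bar at the median. Points at 1 are cells with no UMI of the gene. The calcitriol medians are higher for *Mgp*, *Cst3*, *Chad* and *Mt1* and lower for *Pgk1*, *Mif*, *Fkbp11* and *R3hdml*, and the ranges overlap for all 8.

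The cartilage collagens that were compared (IX, XI and XXVII) all stood below 0 and within 2-fold. *Col3a1*, a collagen of fibroblasts found in 24.7% and 19.7% of members, was at -1.25. Of 22 compared genes of the cartilage collagen and aggrecan network, 4 had ratios above 0 and 18 below, beside 66.2% of all genes below 0. The median was -0.35, within the quartiles of all genes, and 1 was 2-fold higher and 2 lower, beside 1.56% and 3.55% of all genes. *Col9a3* (-0.34), *Col11a1* (-0.49), *Snorc* (-0.09) and the thrombospondin *Comp* (-0.61) were the most abundant compared members. The lowest was *Matn1*, another matrilin, at -1.34, and the highest was *Cilp*, an intermediate-layer protein, at 2.70. *Cilp* was found in 16.9% and 20.5% of members, with 33.1% of its calcitriol UMIs in 1 cell. The small leucine-rich proteoglycans had a median of 0.08 over 8 genes. Within them *Dcn* (decorin) stood at 1.61 (0.78 in cells with no UMI of *Prg4*), *Fmod* (fibromodulin) at -0.74 and *Bgn* (biglycan) at -0.18. The lowest, *Aspn*, was at -1.53, and at 4.16 without marked doublets. The 18 genes of sulfation and glycosaminoglycan synthesis had a median of -0.32 and none past 2-fold, among them *Papss2*, which makes the sulfate donor (-0.32), and *Chst11*, a chondroitin sulfotransferase (-0.27).

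All 28 genes of the collagen folding and secretory list were compared. Of these, 26 had ratios below 0, 7 were 2-fold lower and none 2-fold higher, with a median of -0.86, beside 66.2%, 3.55% and -0.17 for all genes below 0, 2-fold lower and at the median. *Serpinh1* encodes HSP47, the collagen chaperone of the endoplasmic reticulum. Its cell values were 717, 3160 and 9250 CPM untreated and 88.2, 1135 and 5019 CPM with calcitriol, so that the upper quartile with calcitriol (1902) lay below the lower quartile untreated (2464). The summed level went from 3525 to 1415 CPM, a log2 ratio of -1.32. The prolyl hydroxylases of collagen were lower as well, with *P3h2* at -2.17, *P4ha1* at -1.38, *P3h1* at -1.22 and *P4ha2* at -1.19. *Ppib*, a prolyl isomerase, stood at -0.68. *Hspa5*, the main chaperone of the endoplasmic reticulum, stood at 0.17 and *Sparc*, a secreted collagen-binding protein on the same list, at 0.26.

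*Fkbp11*, an isomerase of the secretory pathway outside that list, had cell values of 0, 164 and 1441 CPM untreated and 0, 22.1 and 342 CPM with calcitriol, and a log2 ratio of -2.42. The 15 compared genes of the unfolded protein and stress response had a median of 0.00. Of these, 1 was 2-fold higher and 3 were 2-fold lower, beside 1.56% and 3.55% of all genes. *Atf4*, a central transcription factor of that response, stood at 0.01, the chaperone gene *Sdf2l1* at -1.34 and *Chac1*, which degrades glutathione, at 1.27.

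Of 21 compared genes of glycolysis and hypoxia, 17 had ratios below 0, 10 were 2-fold lower and none 2-fold higher, with a median of -0.96. Among all genes compared, 66.2% were below 0, 3.55% were 2-fold lower and the median was -0.17. *Pgk1* encodes phosphoglycerate kinase (chrX:106187100-106203699, plus strand, GRCm38). Its cell values were 0, 299 and 1170 CPM untreated and 0, 78.8 and 318 CPM with calcitriol, and the calcitriol upper quartile (126) lay below the untreated lower quartile (170). The summed level went from 362 (341 to 384) to 91.6 (82.7 to 101) CPM, a log2 ratio of -1.98.

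*Gapdh* had a median cell value of 889 CPM untreated and 473 CPM with calcitriol and a log2 ratio of -1.13, or -0.96 after centring. Further members at 2-fold or more were *Slc16a3*, the lactate exporter, at -2.91, the phosphofructokinase *Pfkl* at -2.15, *Tpi1* at -1.84, *Pgam1* at -1.69, the oxygen-sensing hydroxylase *Egln1* at -1.5, *Pkm* at -1.39, *P4ha1* at -1.38 and *Eno1* at -1.20. *Ldha*, which makes lactate, stood just inside at -0.96 and *Aldoa* at -0.67. The 4 genes above 0 were the hexokinase *Hk2* at 0.47, the glucose transporter *Slc2a1* at 0.35, *Bnip3* at 0.16 and *Ndrg1* at 0.08. *Vegfa*, the vessel growth factor induced by low oxygen, was at -0.13, and *Hif1a*, the factor that responds to low oxygen, at -0.34.

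Because these genes were lower together, the 250 bases before their annotated starts (RefSeq, GRCm38.p6) were searched for the core of the hypoxia response element, spelled ACGTG or GCGTG, on both strands. It was found for 9 of the 10 genes, counting a gene when any of its windows had a match. Of all 27025 genes with a window, 41.5% had a match, and of the 3626 compared genes with a window, 65.8%. The 10 genes came from the glycolysis and hypoxia list, and no share was taken for its other compared genes. Whether matches go with lower ratios was thus not tested. A match is a description of the sequence and not a site shown to be bound. The windows of *Pgk1* (chrX:106186850-106187099), *Slc16a3* (chr11:120948817-120949066), *Pgam1* (chr19:41911621-41911870) and *P4ha1* (chr10:59323046-59323295), all on the plus strand, are shown with their matches in capitals, as 4 examples chosen after the matches were seen from the 7 genes with more than 1 match. The other 3 were *Gapdh*, *Eno1* and *Egln1*, with 2 matches each.
Pgk1: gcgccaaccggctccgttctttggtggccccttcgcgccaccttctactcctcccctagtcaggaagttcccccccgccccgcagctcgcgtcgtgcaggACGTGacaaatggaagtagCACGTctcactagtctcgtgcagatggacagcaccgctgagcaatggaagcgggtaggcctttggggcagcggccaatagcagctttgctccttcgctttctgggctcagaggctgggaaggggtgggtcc
Slc16a3: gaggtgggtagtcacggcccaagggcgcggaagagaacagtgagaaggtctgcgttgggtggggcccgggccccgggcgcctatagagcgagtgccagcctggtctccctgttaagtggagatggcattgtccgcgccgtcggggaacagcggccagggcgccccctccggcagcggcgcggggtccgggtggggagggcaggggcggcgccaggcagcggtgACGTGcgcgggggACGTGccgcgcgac
Pgam1: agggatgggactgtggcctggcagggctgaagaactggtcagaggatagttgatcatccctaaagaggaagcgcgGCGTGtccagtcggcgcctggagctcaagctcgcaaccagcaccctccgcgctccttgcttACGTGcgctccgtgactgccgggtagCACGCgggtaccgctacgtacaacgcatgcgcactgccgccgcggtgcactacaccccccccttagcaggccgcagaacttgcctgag
P4ha1: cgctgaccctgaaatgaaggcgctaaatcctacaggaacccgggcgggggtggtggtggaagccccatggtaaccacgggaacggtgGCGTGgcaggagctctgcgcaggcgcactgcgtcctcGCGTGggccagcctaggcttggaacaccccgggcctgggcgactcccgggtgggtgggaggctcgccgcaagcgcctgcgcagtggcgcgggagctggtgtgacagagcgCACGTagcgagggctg
The matches number 2 in *Pgk1*, 2 in *Slc16a3*, 3 in *Pgam1* and 3 in *P4ha1*. No match was found in the windows of *Tpi1*, which was lower by 1.84 on the log2 scale.

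Other genes among the smallest ratios had varied roles. *R3hdml*, a putative serine protease inhibitor, had cell values of 0, 47.1 and 2624 CPM untreated and 0, 0 and 209 CPM with calcitriol, and the smallest log2 ratio of the rule at -4.17 (-4.57 to -3.80). It was found in 65.2% of untreated and 22.0% of calcitriol members, and in no endothelial cell of either library. *Mif*, a cytokine also made under low oxygen, had cell values of 0, 302 and 1559 CPM untreated and 0, 66.5 and 440 CPM with calcitriol, with a ratio of -2.37. *Ndufa4l2*, a mitochondrial protein induced by low oxygen, stood at -2.16. The imprinted gene *Mest* was at -2.16, the matrix protein gene *Spon2* at -2.07 and the sterol-regulated *Tmem97* at -1.90. *Cxcl2* (-3.04) and *Postn* (-1.85) rested on few cells: 1 cell held 65.9% of the untreated UMIs of *Cxcl2* and 63.4% of those of *Postn*. Without marked doublets *Postn* was at 3.88. *Bglap2* (osteocalcin) was at -2.06, and at -0.99 without them.

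Of 18 compared lipid genes, 16 were below 0, 4 were 2-fold lower and none 2-fold higher. The median of -0.38 lay within the quartiles of all genes, of which 66.2% were below 0 and 3.55% 2-fold lower. *Fdps*, an enzyme of the mevalonate route, stood at -1.46. *Smpd3*, a sphingomyelinase needed for mineralization of cartilage, was not on that list. It was at -1.54 and was found in 86.5% of untreated and 45.7% of calcitriol members. *Smpd3* was the lowest of 15 compared genes of mineralization and phosphate handling, 8 of which had ratios above 0. Of these 15, 3 were 2-fold higher and 2 lower, beside 1.56% and 3.55% of all genes, and the median was 0.08.

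**Figure D3:**
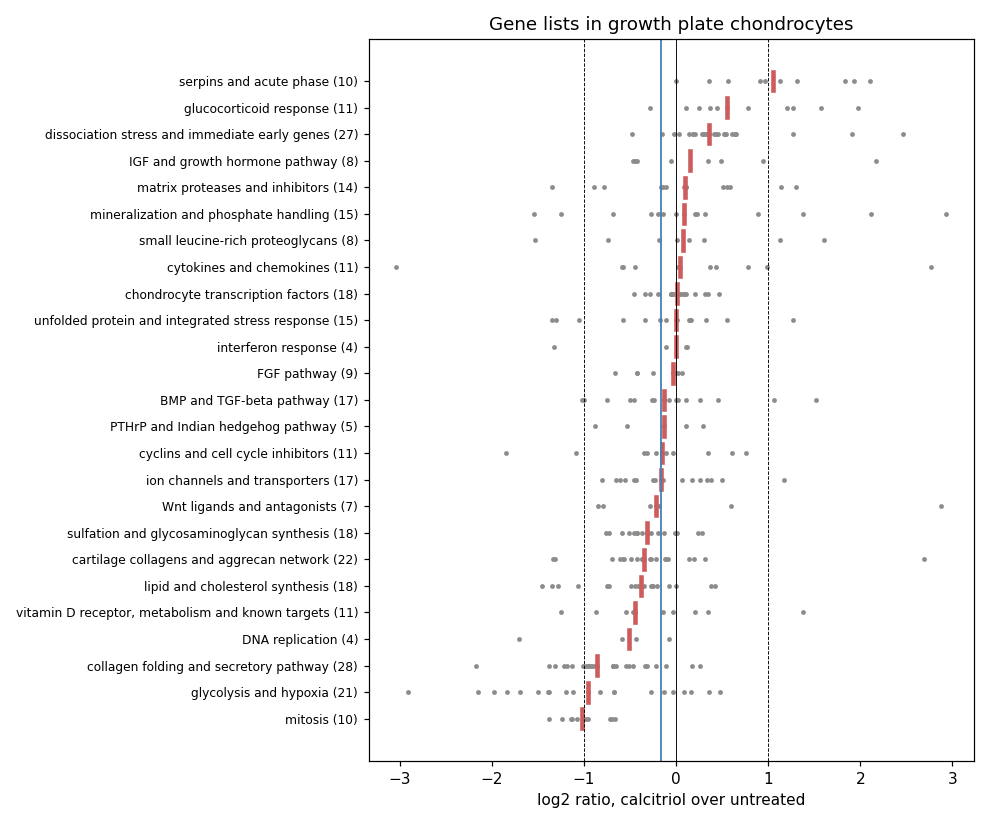
Log2 ratio, calcitriol over untreated (horizontal), of the compared genes of 25 gene lists in growth plate chondrocytes, 1 grey point per gene, with a red bar at each list's median and the number of genes in brackets. The blue line is the median of all 4558 genes (-0.17), and dashed lines mark 2-fold. Medians run from -1.03 for mitosis to 1.05 for serpins.

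Several groups stood higher with calcitriol. Of 11 compared genes of the glucocorticoid response list, 10 had ratios above 0, 4 were 2-fold higher and none 2-fold lower, with a median of 0.55. Of all genes compared, 1.56% were 2-fold higher and 3.55% lower, and the median was -0.17. *Fkbp5*, a cochaperone of the glucocorticoid receptor, had median cell values of 0 CPM untreated and 48.6 CPM with calcitriol, was found in 37.1% and 76.4% of members (13.5% and 41.7% after thinning) and had a log2 ratio of 1.97. *Mt1*, a metallothionein that binds zinc, had cell values of 0, 927 and 6846 CPM untreated and 0, 3216 and 14792 CPM with calcitriol, and a ratio of 1.57. The neighbouring *Mt2* was at 1.27. *Cebpd*, a transcription factor of the acute phase, was at 1.21 and *Tsc22d3* (GILZ) at 0.78. *Sgk1* stood at 0.37, and the receptor gene *Nr3c1* was the only compared member below 0, at -0.28.

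Serpins and acute phase genes had the highest median of the 25 lists, 1.05, with 9 of 10 above 0, 5 at 2-fold higher and none lower, beside 1.56% and 3.55% of all genes and 66.2% of them below 0. *Serpina1a* had cell values of 0, 113 and 5890 CPM untreated and 0, 377 and 9466 CPM with calcitriol, with a log2 ratio of 1.31, or 0.95 as the mean of the cells' own CPM. *Serpina1d* was at 0.97 and *Serpina1b* at 0.91. The *Serpina1* genes are near-identical copies, so their reads may be split uncertainly among them. All 3 were found together in 36 untreated (40.4%) and 74 calcitriol members (58.3%), and none of them in 20 (22.5%) and 27 (21.3%). Across cells, *Serpina1a* and *Serpina1d* had a Spearman rho of 0.80 untreated and 0.83 with calcitriol, over 89 and 127 cells that share a library. *Serpina3n*, an acute phase inhibitor, was at 2.10 and *Serpinf1* at 0.00.

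Heat shock and immediate early genes, which tissue digestion can induce, had a median of 0.35, with 24 of 27 above 0 and 3 at 2-fold higher, where all genes had a median of -0.17 and 1.56% at 2-fold higher. *Hspa1b* (HSP70) stood at 2.46, *Egr1* at 0.64, *Jun* at 0.61 and *Fosb* at 0.53. The part of digestion in the other differences was not tested.

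Dividing cells were a minority. A cell with 5 or more UMIs of the mitosis list after thinning to 10000 UMIs was found 14 times among 89 untreated members (15.7%, 8.88 to 25) and 10 times among 127 calcitriol members (7.87%, 3.84 to 14), against 20.2% and 12.6% unthinned. These intervals overlapped. The 10 compared mitosis genes were all below 0, with 5 at 2-fold lower and a median of -1.03, against 66.2% of all genes below 0, 3.55% at 2-fold lower and a median of -0.17. *Top2a* (DNA topoisomerase) was at -1.07, *Mki67* at -0.98 and *Cdk1* at -1.38. In cells with no UMI of *Prg4*, an alternative chosen after seeing the data, the median was -0.14, and *Top2a* (0.18) and *Cdk1* (0.0063) were no longer below 0. *Top2a* was found in 15.7% and 11% of members, and 22.5% of its calcitriol UMIs lay in 1 cell. Fewer dividing cells and less RNA per dividing cell were not separated here. The cell cycle inhibitor *Cdkn1c* (p57), which marks cells that leave division, was also lower, at -1.84, while *Cdkn1a* (p21) was at -0.03.

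Of 18 chondrocyte transcription factors none was past 2-fold, as for most genes compared, and the median was 0.01. *Sox9*, the master factor of cartilage, had cell values of 336, 1434 and 6004 CPM untreated and 199, 1764 and 5493 CPM with calcitriol, and a ratio of 0.34. The PTHrP and Indian hedgehog list had 5 compared genes and none past 2-fold, with the receptor *Pth1r* at -0.53, *Ptch1* at -0.13 and the hedgehog-binding *Hhip* at -0.88. The 9 FGF genes had a median of -0.03 and none past 2-fold. Of 17 BMP and TGF-beta genes, 2 were 2-fold higher and 2 lower, beside 1.56% and 3.55% of all genes, and the median of -0.13 was close to that of all genes (-0.17). *Tgfbr3* (betaglycan), a co-receptor, was at 1.52 and found in 56.2% of untreated and 84.3% of calcitriol members, while the BMP-family ligand *Gdf10* was at -1.03 (-0.86 in the weakest alternative) and *Tgfb2* at -0.13. *Frzb*, a secreted Wnt antagonist of cartilage, was at 2.87 and found in 14.6% and 32.3% of members, but at 0.71 with cells thinned to 5000 UMIs. *Wnt4* was at -0.28. The 7 compared Wnt genes had a median of -0.22, and *Frzb* was the only one past 2-fold. *Igf1r* was at 0.49. The 8 compared IGF genes had a median of 0.15, with 4 above 0 and 4 below. Among them only *Igfbp6* (2.18) was past 2-fold. *Timp3*, an inhibitor of matrix proteases, was at 1.30, and the protease gene *Mmp14* at -1.35, which came to -0.56 without marked doublets.

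The vitamin D receptor gene was low and *Cyp24a1* was not detected. *Vdr* (chr15:97854425-97910630, minus strand, GRCm38) had 23 UMIs in 20 untreated members and 36 UMIs in 19 calcitriol members, which is 7.46 CPM (4.73 to 11.2) and 8.53 CPM (5.97 to 11.8). The log2 ratio was 0.19 (-0.60 to 1.01), and no difference was detectable at this depth. In the prehypertrophic and hypertrophic cells it stood at 24.3 CPM (17.3 to 33.2) and 18.6 CPM (13.6 to 24.8), each above the growth plate interval of its library. *Cyp24a1*, the enzyme that breaks down calcitriol, had 0 UMIs in members of either library, which by a floor of 3 counts allows up to 0.973 CPM untreated and 0.71 CPM with calcitriol. Of 11 compared genes of the vitamin D list, 1 was 2-fold higher and 1 lower, and the median was -0.44, beside 1.56%, 3.55% and -0.17 for all genes. The higher one was *Spp1* at 1.38, which came to 0.24 without the cell with most UMIs in each library, and -1.76 in cells nearly free of genes of other lineages. The lower was *Bglap* at -1.26, which came to -0.69 without marked doublets.

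The largest ratios of the naming rule held many genes that few cells carried. *Fabp4*, a fatty acid carrier of fat and endothelium, had the largest at 4.04, with 14 UMIs in 3 untreated and 315 in 22 calcitriol cells, 45.7% of the latter in 1 cell. The matrix genes *Abi3bp* (3.07) and *Ibsp* (2.93), the chemokine *Cxcl10* (2.76), the phosphatase *Dusp2* (2.48), the endothelial *Ly6c1* (2.28) and *Igfbp6* (2.18) had a UMI in under 30% of members of either library, with 28.6% to 56.0% of their calcitriol UMIs in 1 cell. In cells with no UMI of *Prg4*, *Abi3bp* was at 0.84, *Cxcl10* at 0.58 and *Igfbp6* at -0.48, and *Ibsp* was at 0.66 with *Matn3* and *Epyc* limits set as shares of UMIs. Broader were *Apod*, an apolipoprotein found in 20.2% and 44.9% of members (2.17), and *Glul*, glutamine synthetase, found in 25.8% and 55.9% (2.06).

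Across the cells of a library, the Spearman rho of *Mgp* with *Col9a1* was -0.44 untreated and -0.51 with calcitriol. Both levels are shares of one total, of which *Mgp* takes a part. The rho of *Mgp* with *Cst3* was 0.34 and 0.45. *Pgk1* and *Mif* went together in untreated cells (0.69), as did *Pgk1* and *Gapdh* (0.66), and with calcitriol, where counts were lower, rho was 0.12 and 0.20. These are descriptions over 89 and 127 cells that share a library and a total.

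Members differed from all other *Col2a1* cells in genes outside the rule, given with no test because the rule selected among these cells. *C1qtnf3*, a secreted protein of cartilage, had 418 CPM in members and 34.0 CPM in the others untreated, and 156 and 11.7 CPM with calcitriol. *Barx2*, a homeobox factor, had 156 against 12.8 and 129 against 17.3 CPM, and *Ppa1*, the pyrophosphatase, 5153 against 1032 and 4032 against 818 CPM. *Hist1h1b*, *Stmn1*, *Top2a*, *Ube2c*, *Mki67* and *Birc5*, genes of dividing cells, were also among the 15 largest, as were *Hist1h2ap*, *Tgfbi*, *Crispld2*, *Car12*, *Serpina1a* and *Serpina1b*.

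The same ratios were set beside those of other cells in the libraries, which share the libraries and so are not independent. These were 44 and 66 cells with *Col10a1* or *Ihh* above the limits (prehypertrophic and hypertrophic by that rule), 48 and 93 cells with *Prg4* at 0.5% or more, 94 and 144 further *Col2a1* cells, and 197 and 232 endothelial cells. *Mgp* had log2 ratios of 1.75, -0.33, 0.65 and 0.84 in that order, against 2.12 in growth plate cells. In the *Prg4* cells its level was 10894 CPM untreated and 8673 CPM with calcitriol. *Cst3* was at 0.56, 0.09, 0.48 and 0.53, and its level in growth plate cells of either library was below that in all 3 other cartilage groups. *Fkbp5* was at 1.5, 1.40, 1.09 and 1.56, and *Pgk1* at -1.07, -0.97, -1.05 and -0.41. *Serpinh1* was at -1.36, -1.94, -1.66 and -0.82, and *R3hdml* at -2.73 and -3.93 in the prehypertrophic and the further *Col2a1* cells. *R3hdml* had 0 UMIs in untreated and 20 in calcitriol *Prg4* cells, and none in endothelial cells.

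List medians were set side by side in the same way. For glycolysis and hypoxia they were -0.90, -0.60, -0.70 and -0.25, against -0.96 in growth plate cells. For collagen folding and secretion they were -0.63, -0.85, -0.73 and -0.26, against -0.86. For the glucocorticoid list they were 0.94, 0.37, 0.94 and 0.57, against 0.55. The medians of all compared genes were -0.17, -0.07, -0.22 and -0.07, against -0.17. Whether growth plate cells differed from the others in any of these was not tested, since each cell group has 1 library per condition.

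**Figure D4:**
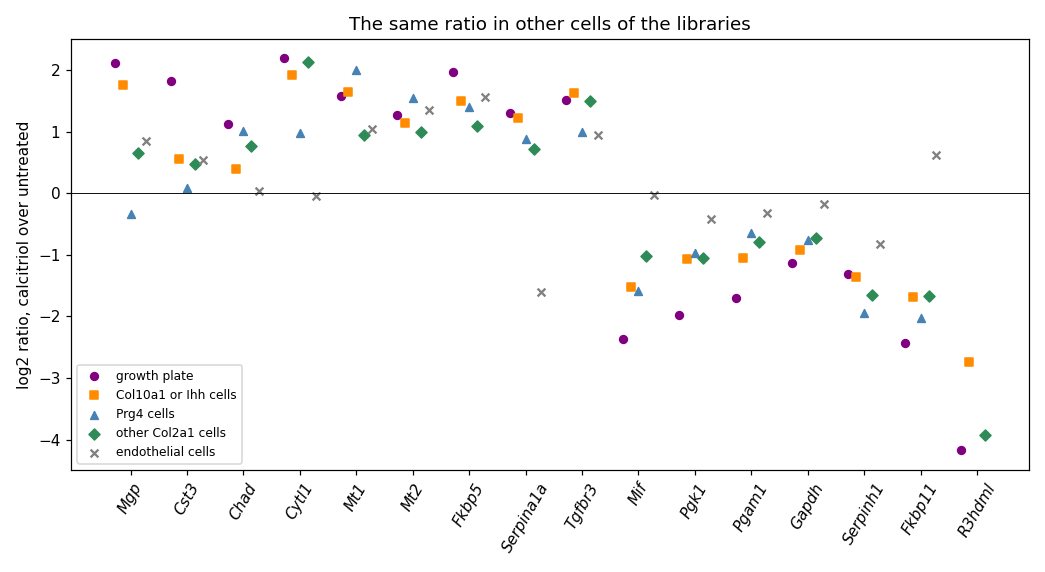
Log2 ratio of summed CPM, calcitriol over untreated (vertical), of 16 genes in growth plate chondrocytes (purple circles) and in 4 other groups of cells of the same libraries; 1 point per gene and group, and none where a library had no UMI. *Mgp* is at 2.12 in growth plate cells and -0.33 in *Prg4* cells, while *Serpinh1* is below 0 in all 5 groups.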

How the data were processed

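The authors deposited 1 matrix of UMI counts per library, filtered by Cell Ranger. The submitters' processing notes name Cell Ranger 4.0.0, Seurat 3.2.2 and mm10. UMIs of 3′ ends do not scale with gene length. Cells and gene lists were chosen with earlier results of these data known. Counts were summed over member cells of a library and divided by all their UMIs (CPM). Intervals at 95% were exact Poisson for levels, conditional binomial for ratios and Clopper-Pearson for shares. Genes with a mean of 20 CPM or more were compared, and 2-fold was the threshold. No test between groups was made, with 1 library per group. Doublets were scored with scanpy 1.11.5 from 2 simulated pairs per cell at 0.8% per 1000 barcodes. Other steps used Python 3.11.15, numpy 2.4.6, scipy 1.17.1, pandas 2.3.3 and matplotlib 3.10.9, and the counting was tested on simulated data.

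Genes named were the 15 largest and 15 smallest ratios with a UMI in at least 10% of members of a library (without haemoglobin, mitochondrial, predicted and rule genes), the 20 highest in CPM, rule and marker genes, the ends and up to 4 highest members of each list, *Vdr*, and the 15 with the largest fold over other *Col2a1* cells (pseudocount 10 CPM). Further list members, and genes named for single cells or free RNA, were chosen after their values were seen. Some genes that the rule names are not reported here. Coordinates came from GENCODE vM21 by Ensembl identifier and promoters from RefSeq by symbol, both on GRCm38, the build called mm10. Endothelial cells had 5 or more UMIs of *Pecam1*, *Cdh5* and *Emcn* and red cells 50.0% or more haemoglobin. Alternatives covered depth, scaling, doublets, cell limits and the CPM minimum.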

Additional observations from a re-analysis of the deposited data

Results flagged for a closer look

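Each gene below was past 2-fold in growth plate chondrocytes and past 2-fold in the opposite direction in another group of cells of these libraries. The difference was not tested, since each group of cells has 1 library per condition. The share of all compared genes that did so is not given, so nothing is read from how many are listed. The other groups held 44 to 144 cells per library, and how their UMIs were spread over cells is not given. *Abi3bp* had a log2 ratio of 3.07 in growth plate cells and -1.38 in prehypertrophic and hypertrophic cells. *Igfbp6* was at 2.18 against -3.96 in those cells and -1.81 in *Prg4* cells. *Cxcl10* was at 2.76 against -1.93 in *Prg4* cells, and *Spp1* at 1.38 against -1.41 there. *Matn1* was at -1.34 in growth plate cells, 4.36 in *Prg4* cells and 3.05 in the further *Col2a1* cells. In growth plate cells with calcitriol, the cell with most UMIs of each gene held 56.0% of those of *Abi3bp*, 45.7% of *Igfbp6*, 45.4% of *Cxcl10* and 62.4% of *Spp1*. The cell with most *Spp1* had no UMI of *Igfbp6* or *Cxcl10*.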

How the results depend on the processing

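As reported, 71 genes were 2-fold higher and 162 lower with calcitriol. With cells thinned to 5000 UMIs the counts were 144 and 354, with a minimum of 10 CPM 141 and 276, with 50 CPM 37 and 87, and with none 1202 and 1520. Centring gave 95 lower. Matched shares in place of UMIs for *Matn3* and *Epyc* left 84 calcitriol members. Without marked doublets, *Postn* was at 3.88 and *Aspn* at 4.16, against -1.85 and -1.53 as reported. The next 2 alternatives were chosen after seeing the data. Cells with no UMI of *Prg4* left 57 calcitriol members and gave 263 lower, with *Igfbp6* at -0.48, *Cdk1* at 0.0063 and *Top2a* at 0.18, and a median of -0.14 for the mitosis list against -1.03. Cells nearly free of 9 genes of other lineages put *Aspn* at 0.93 and *Spp1* at -1.76. The causes of these changes were not tested. The log2 ratio of *Mgp* ran from 1.98 to 2.34, that of *Pgk1* from -2.13 to -1.81 and that of *Serpinh1* from -1.41 to -1.15, so these kept their side of 2-fold under all alternatives run. For some other genes that came under 2-fold, the value stands beside the result. No paired analysis was possible because each group has 1 library. Precision is limited by 1 library per group, by cells of pooled mice, and by counting error for genes near 20 CPM.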

Other observations

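*Angptl7*, an angiopoietin-like gene outside the naming rule and chosen after its values were seen, had 2 UMIs in 2 untreated growth plate cells and 267 UMIs in 10 of 127 calcitriol cells, with 59.2% of the latter in 1 cell. Its level with calcitriol was 63.2 CPM in growth plate cells, 13.3 CPM in prehypertrophic and hypertrophic cells, 72.9 CPM in *Prg4* cells and 123 CPM in the further *Col2a1* cells, against 0.649, 0, 0 and 23.8 CPM untreated. A single cell held 84.8% of the calcitriol UMIs in the prehypertrophic and hypertrophic group and 97.7% of the untreated UMIs in the further *Col2a1* cells. It was also 2.34 CPM untreated and 32.8 CPM with calcitriol in red cells, and 0.371 and 101 CPM in endothelial cells, where 1 cell held 97.6% of the calcitriol UMIs, and the part of free RNA was not tested. Among genes below the CPM minimum, *Lcn2*, an iron-binding acute phase protein, was at 0.649 CPM untreated and 17.5 CPM with calcitriol.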
